A study of Saccharomyces cerevisiae with 12 samples.

Results

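The 10 genes described here encode enzymes of the tricarboxylic acid (TCA) cycle and were followed in the budding yeast Saccharomyces cerevisiae through 180 min of 2 stresses. They were CIT1, CIT2, ACO1, IDH1, IDH2, KGD1, KGD2, LSC1, LSC2 and FUM1. Probe sets were matched to a list of these genes by symbol, and the list itself was drawn up with earlier results of these data known. Each of the 10 had exactly 1 probe set on the array, none of a type shared between similar genes, so they make up 10 of the 5449 genes tested. All arrays came from cells in mid-log growth in the glucose medium YPD at 25 °C, and neither a strain nor a genotype is given in the sources used here. One course received 0.1% methyl methanesulfonate (MMS), which alkylates DNA bases, and the other received 0.3 mM hydrogen peroxide (H2O2), an oxidant. Each course had 1 array at 0, 30, 60, 100, 140 and 180 min, which made 12 arrays. They were grouped as the early MMS window (30 and 60 min, n = 2), the late MMS window (100, 140 and 180 min, n = 3), the early and late H2O2 windows with the same times and numbers, and time 0, which holds the 0 min array of each course (n = 2). Times of a window stood in for replicates, and time 0 joined the 2 courses. The adjusted p-values therefore measure the spread among time points and between the 0 min arrays, and not among known replicate cultures. All 4 windows were set against the same time 0 arrays. No later unstressed array is part of these 12, so stress and time in culture cannot be told apart.

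The TCA cycle runs in the mitochondrial matrix, where it oxidises acetyl-CoA to carbon dioxide and passes electrons to the respiratory chain. It also supplies 2-oxoglutarate and oxaloacetate for amino acid synthesis. In budding yeast on glucose, transcripts of the cycle and of respiration are kept low by glucose repression, and the Hap complex activates many of them when glucose is scarce. When respiration is impaired, the retrograde pathway, through Rtg1 and Rtg3, activates CIT2 and takes over the first steps of the cycle up to 2-oxoglutarate, encoded by CIT1, ACO1, IDH1 and IDH2. CIT2 encodes the peroxisomal citrate synthase of the glyoxylate route and not the mitochondrial one.

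Signals are log2 values, and changes are log2 differences ± the standard error (SE) of a limma fit over all 5449 genes. A gene was called when its Benjamini-Hochberg adjusted p was under 0.05. Array medians over genes lay between 9.06 and 9.20, and the 0 min arrays correlated at r = 0.998 across genes. The genes in that correlation are not independent replicates. Of the genes that check the labels, SRX1 (sulfiredoxin) was higher in the early windows of both MMS (log2 6.62 ± 0.73) and H2O2 (6.60 ± 0.73), and HUG1 (a DNA damage response gene) was higher in the late windows of both MMS (2.91 ± 0.50) and H2O2 (3.72 ± 0.50). Both check genes were therefore higher in both courses, so these changes do not tell the courses apart. SRX1 signals at 100, 140 and 180 min were 12.28, 11.68 and 11.80 in MMS and 8.69, 6.67 and 5.77 in H2O2. Precision is limited by how few arrays there are.

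CIT1, CIT2, ACO1, IDH1, IDH2, KGD2 and LSC2 rose in the late windows of both stresses. In the late MMS window 9 of the 10 genes rose and none fell, with FUM1 the exception (0.01 ± 0.09, adjusted p = 0.951). In that comparison 40.3% of all genes were called higher and 34.6% lower. In the late H2O2 window 7 of 10 rose and none fell, against 9.12% of all genes called higher and 6.28% lower. The median log2 change of the 10 genes was 0.68 in the late MMS window and 0.74 in the late H2O2 window, beside medians over all genes of 0.09 and -0.06.

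Fewer of the genes were called in the early windows. In the early MMS window 1 of 10 rose, CIT1, where 18.7% of all genes were called higher, and the members' median change was 0.16 (all genes, 0.02). In the early H2O2 window 4 of 10 rose, CIT1, ACO1, IDH1 and IDH2, where 14.7% of all genes were called higher, and the median was 0.48 (all genes, -0.04). None of the 10 fell in either early window, with 14.3% of all genes called lower in MMS and 19% in H2O2. Every late MMS array lay above both 0 min arrays for 9 of the 10 genes, as it did for 46% of all genes. Every late H2O2 array did so for all 10, against 28.6% of all genes.

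The H2O2 calls rest on both 0 min arrays. The counts that follow are of members only, and how many of all genes were then called is not given here. Whether the losses were particular to the members was not tested. With either 0 min array left out, 0 members were called in the early or the late H2O2 window, although CIT1 stayed between 1.39 and 1.51 in the late window over all alternatives. The late H2O2 count was 4 without its 100 min or its 140 min array, and the early H2O2 count was 6 without its 30 min array and 0 without its 60 min array. The late MMS count was 7 to 9 whichever array was left out, and CIT1, IDH1, IDH2, KGD2 and LSC1 passed there in all 21 alternatives run.

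**Figure D1:**
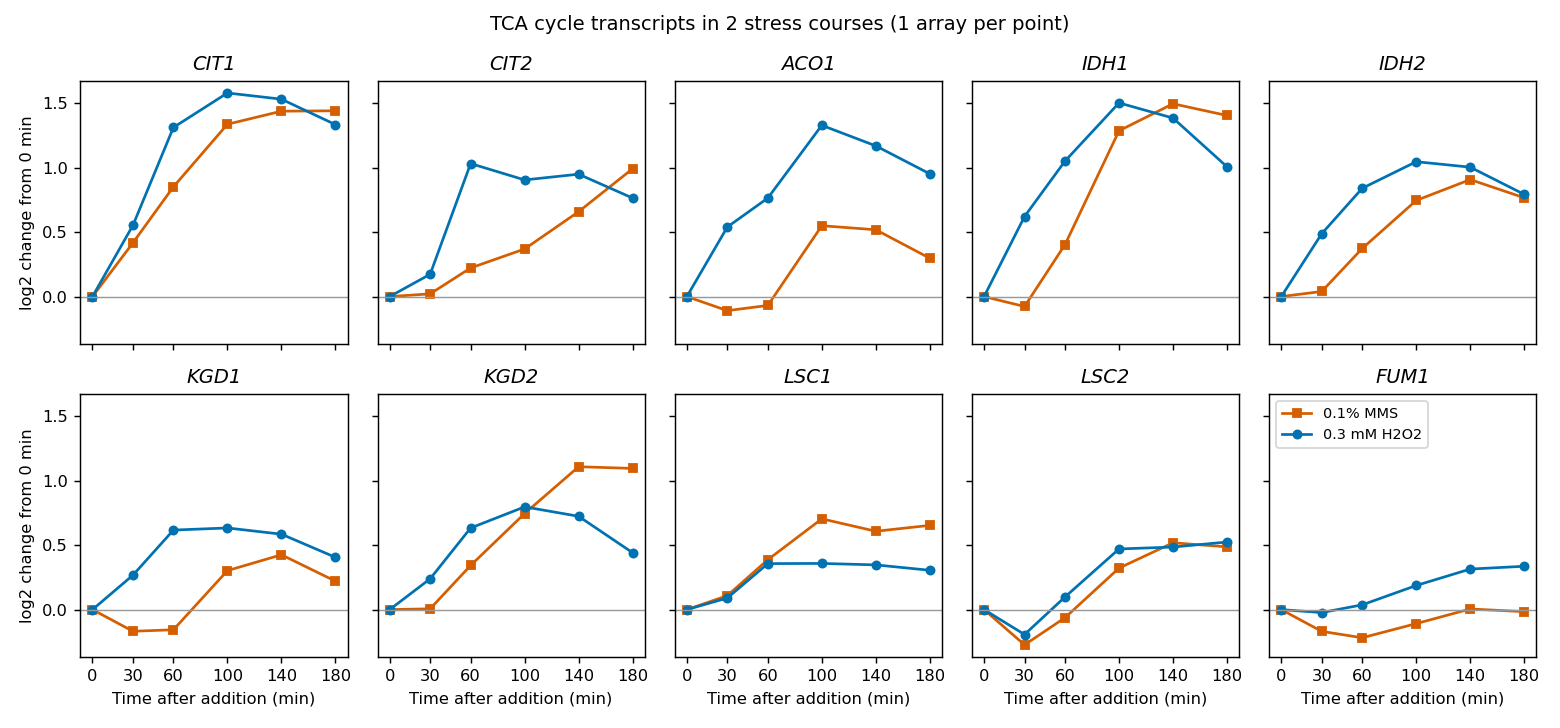
Log2 signal relative to each course's own 0 min array (y axis) against time in minutes (x axis) for the 10 genes, with 1 array per point, MMS as orange squares and H2O2 as blue circles. In the H2O2 course 7 of the 10 genes were highest at 100 min, whereas in the MMS course 6 were highest at 140 min. Among these 6 was FUM1, which stayed within 0.22 of its 0 min value and at 140 min was only 0.005 above it.

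Citrate synthase joins acetyl-CoA to oxaloacetate and opens the cycle. CIT1, the mitochondrial enzyme (YNR001C), had log2 signals of 10.95, 11.36, 11.80, 12.28, 12.39 and 12.39 at 0, 30, 60, 100, 140 and 180 min of MMS. In the H2O2 course its signals at the same times were 10.85, 11.41, 12.17, 12.44, 12.39 and 12.19. All 10 stressed arrays lay above both 0 min arrays, and the H2O2 course was highest at 100 min while MMS levelled off by 140 min. CIT1 rose by 1.45 ± 0.21 in the late MMS window (2.74-fold, adjusted p = 0.000167) and by 1.44 ± 0.21 in the late H2O2 window (2.71-fold, adjusted p = 0.00573). In the early windows it rose by 0.68 ± 0.22 in MMS (adjusted p = 0.0432) and 0.89 ± 0.22 in H2O2 (adjusted p = 0.0158). The early MMS call was narrow. It was lost with arrays centred on their medians (0.63, adjusted p = 0.0578), and over all alternatives its adjusted p lay between 0.013 and 0.422. Leaving out either 0 min array, the 60 min MMS array or any late array of either course also ended it.

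CIT2 (YCR005C), the peroxisomal citrate synthase, rose in both late windows. Under MMS its log2 signals were 11.29, 11.31, 11.51, 11.66, 11.95 and 12.28 at 0 to 180 min, each array above the one before. Under H2O2 they were 11.25, 11.42, 12.28, 12.15, 12.20 and 12.01, so that the highest value came at 60 min. Both courses reached about the same highest signal, 12.28 in each, at 180 min of MMS and at 60 min of H2O2. CIT2 rose by 0.69 ± 0.24 in the late MMS window (1.62-fold, adjusted p = 0.0231) and by 0.85 ± 0.24 in the late H2O2 window (1.81-fold, adjusted p = 0.0407). It did not pass in the early window of MMS (0.14 ± 0.26, adjusted p = 0.691) or of H2O2 (0.58 ± 0.26, adjusted p = 0.112). Set against each other, MMS and H2O2 did not differ past the threshold for CIT2 in the early (-0.44 ± 0.26, adjusted p = 0.32) or the late window (-0.16 ± 0.21, adjusted p = 0.52, 95% interval from -0.64 to 0.32).

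Aconitase converts citrate to isocitrate and carries an iron-sulfur cluster that oxidants can damage. ACO1 (YLR304C) had signals of 11.46, 11.35, 11.39, 12.01, 11.97 and 11.75 at 0 to 180 min of MMS. In H2O2 its signals were 11.24, 11.78, 12.002, 12.57, 12.41 and 12.19. The MMS arrays of the first hour lay between the 0 min arrays of the courses, whereas every H2O2 array lay above both. ACO1 rose by 0.57 ± 0.14 in the late MMS window (1.48-fold, adjusted p = 0.00394) and by 1.04 ± 0.14 in the late H2O2 window (2.06-fold, adjusted p = 0.00538). Its 0 min arrays differed by 0.22, with the MMS course the higher, which is among the wider gaps of the 10 genes and is exceeded by KGD1 at 0.26.

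The NAD-dependent isocitrate dehydrogenase, which makes 2-oxoglutarate, is built of the regulatory subunit IDH1 and the catalytic subunit IDH2. IDH1 (YNL037C) had signals of 10.52, 10.44, 10.92, 11.81, 12.02 and 11.93 at 0 to 180 min of MMS. In H2O2 it had 10.49, 11.11, 11.54, 11.99, 11.87 and 11.50. At 30 min the MMS array was thus just below both 0 min arrays while the H2O2 array was already 0.62 above its own, and by 180 min the MMS array was the higher one. IDH1 rose by 1.41 ± 0.19 in the late MMS window (2.66-fold, adjusted p = 0.000137) and 1.28 ± 0.19 in the late H2O2 window (2.43-fold, adjusted p = 0.00582). In the early windows it was at 0.18 ± 0.21 in MMS (adjusted p = 0.523) and rose by 0.82 ± 0.21 in H2O2 (adjusted p = 0.0163).

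IDH2 (YOR136W) kept close to IDH1 in timing with smaller steps. Its signals were 11.44, 11.48, 11.82, 12.19, 12.35 and 12.21 in MMS. They were 11.37, 11.86, 12.21, 12.42, 12.37 and 12.16 in H2O2, highest at 100 min as for IDH1. IDH2 rose by 0.84 ± 0.14 in the late MMS window (1.79-fold, adjusted p = 0.000445) and by 0.91 ± 0.14 in the late H2O2 window (1.88-fold, adjusted p = 0.00615). Early in H2O2 it rose by 0.63 ± 0.16 (adjusted p = 0.0148).

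The 2-oxoglutarate dehydrogenase complex oxidises 2-oxoglutarate to succinyl-CoA. KGD1 encodes its dehydrogenase subunit and KGD2 the succinyltransferase subunit. KGD2 (YDR148C) had signals of 10.67, 10.68, 11.01, 11.42, 11.78 and 11.77 at 0 to 180 min of MMS, against 10.63, 10.87, 11.27, 11.43, 11.36 and 11.07 in H2O2. The courses met at 100 min and then parted, with MMS higher at 140 and 180 min. KGD2 rose by 1.004 ± 0.17 in the late MMS window (2.01-fold, adjusted p = 0.000527) and by 0.64 ± 0.17 in the late H2O2 window (1.55-fold, adjusted p = 0.038).

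Against time 0, KGD1 (YIL125W) passed in the late MMS window and in none of the other 3 windows. Its signals were 10.51, 10.34, 10.35, 10.81, 10.93 and 10.73 in MMS and 10.25, 10.52, 10.87, 10.88, 10.83 and 10.65 in H2O2. The 2 early MMS arrays lay between the 0 min arrays, and every H2O2 array lay above both. KGD1 rose by 0.45 ± 0.13 in the late MMS window (1.36-fold, adjusted p = 0.0118). In the late H2O2 window it measured 0.41 ± 0.13 and did not pass (adjusted p = 0.0639). Its 0 min arrays differed by 0.26, with the MMS course the higher. Relative to the 0 min array of the same course, the late MMS arrays were 0.30, 0.43 and 0.22 higher. The late H2O2 arrays were 0.63, 0.59 and 0.41 higher than theirs.

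Succinyl-CoA ligase makes succinate and ATP, with LSC1 as its alpha and LSC2 as its beta subunit. LSC1 (YOR142W) had signals of 11.59, 11.70, 11.98, 12.30, 12.20 and 12.25 in MMS, against 11.59, 11.68, 11.95, 11.95, 11.94 and 11.90 in H2O2. The courses ran together for 60 min, after which MMS was higher at each of 100, 140 and 180 min. LSC1 rose by 0.66 ± 0.11 in the late MMS window (1.58-fold, adjusted p = 0.000452), whereas in the late H2O2 window it was at 0.34 ± 0.11 and did not pass (adjusted p = 0.0669).

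LSC2 (YGR244C) began with a dip. Its signals were 10.15, 9.88, 10.09, 10.47, 10.67 and 10.64 in MMS and 10.19, 9.997, 10.29, 10.66, 10.68 and 10.72 in H2O2, so that the 30 min array was the lowest of each course. The early windows did not pass, at -0.19 ± 0.12 in MMS (adjusted p = 0.261) and -0.03 ± 0.12 in H2O2 (adjusted p = 0.883). LSC2 rose by 0.42 ± 0.11 in the late MMS window (adjusted p = 0.00682) and 0.51 ± 0.11 in the late H2O2 window (adjusted p = 0.0215).

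Fumarase hydrates fumarate to malate, and the single gene FUM1 (YPL262W) supplies it both to mitochondria and to the cytosol, where it is known to take part in the DNA damage response. Its signals were 11.56, 11.39, 11.34, 11.45, 11.56 and 11.54 at 0 to 180 min of MMS. In H2O2 they were 11.46, 11.44, 11.50, 11.65, 11.78 and 11.80. The lowest FUM1 array of all 12 was MMS at 60 min and the highest was H2O2 at 180 min. No window passed against time 0, with changes of -0.15 ± 0.10 early (adjusted p = 0.251) and 0.01 ± 0.09 late in MMS, and -0.04 ± 0.10 early (adjusted p = 0.785) and 0.23 ± 0.09 late in H2O2 (adjusted p = 0.0985).

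**Figure D2:**
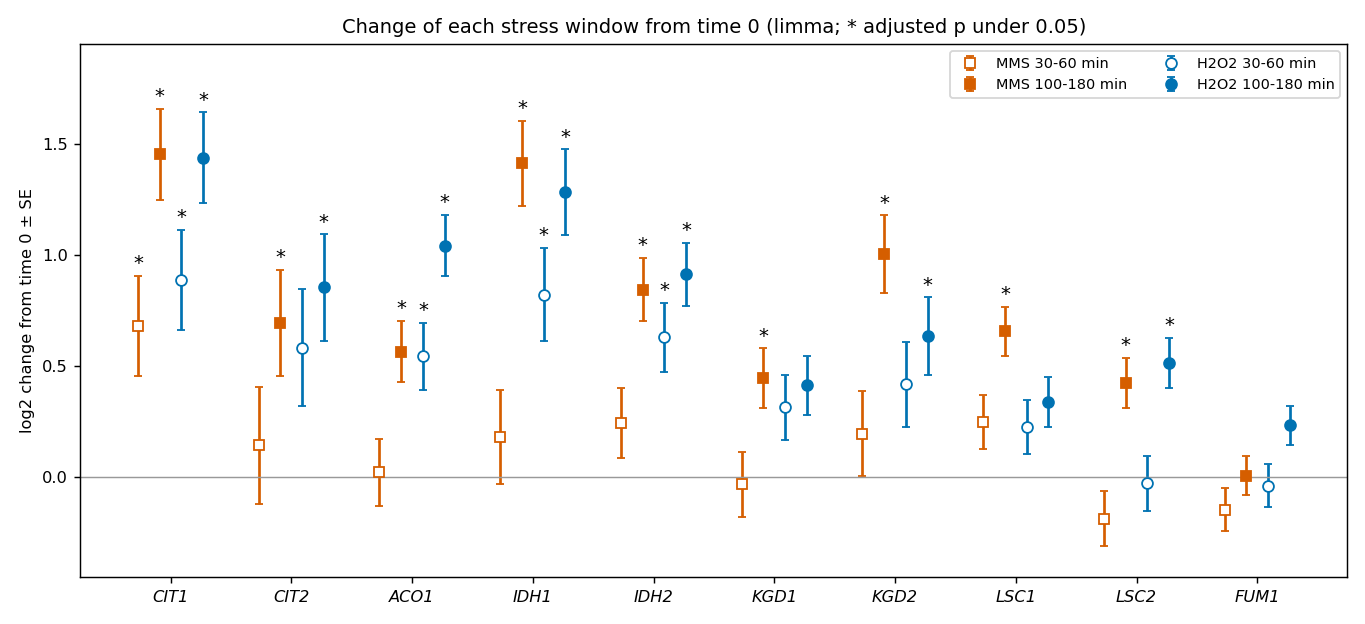
Log2 change of each window from time 0 with the limma SE (y axis) for each gene (x axis), with open symbols for 30 and 60 min (n = 2), filled symbols for 100 to 180 min (n = 3), squares for MMS and circles for H2O2. Stars mark the 9 late MMS, 7 late H2O2, 1 early MMS and 4 early H2O2 changes with an adjusted p under 0.05, and FUM1 has none.

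Most of the genes were higher in the late than in the early MMS window. Late against early MMS, 8 of 10 genes rose (27.1% of all genes called higher), from LSC1 at 0.41 ± 0.11 to IDH1 at 1.23 ± 0.19, and none fell (21.5% of all genes called lower). CIT2 (0.55 ± 0.24, adjusted p = 0.0809) and FUM1 (0.15 ± 0.09, adjusted p = 0.169) did not pass. All 10 genes had every late MMS array above both early ones, as did 37.7% of all genes. The count of 8 fell without the 30 min MMS array, and how many of all genes were then called is not given here.

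Late against early H2O2, 1 gene rose, LSC2 (0.54 ± 0.11, adjusted p = 0.0209), and none fell, where 4.31% of all genes were called higher and 4.75% lower. This call was lost without the 30 min, the 140 min or the 180 min H2O2 array (adjusted p = 0.127, 0.0794 and 0.0761). The other 9 lay between 0.10 and 0.55, with a median of 0.28 over all 10. From their highest H2O2 array to 180 min, CIT1 came down by 0.25 and IDH1 by 0.50 on the log2 scale, and both remained at least 1 log2 unit above 0 min.

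Tested directly, the late minus early change differed between MMS and H2O2 for 1 gene, IDH1, which gained 1.23 in MMS and 0.46 in H2O2, a difference of 0.77 ± 0.27 (adjusted p = 0.0423). Of all genes, 44.7% were called in that comparison, 22.9% as higher. The IDH1 call passed in 11 of 21 alternatives, whose adjusted p-values ran from 0.0128 to 0.409, and it was lost without either 0 min array, the 60 min or the 140 min H2O2 array, the 180 min H2O2 array, the 30 min MMS array, or the 140 or 180 min MMS array. KGD2 had the next largest difference (0.59 ± 0.25, adjusted p = 0.0739). With 1 array left out at a time, the KGD2 difference lay between 0.39 and 0.79.

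Set against each other in the first hour, MMS arrays were the lower for most of the genes, and none passed. At 30 min 9 of 10 genes were lower in the MMS course than in the H2O2 course, and likewise 9 of 10 at 60 min. The share of all genes lower in MMS at these single times was not computed. Over the early window the members' median difference was -0.28, beside 0.05 for all genes. IDH1 was at 10.44 and 10.92 at 30 and 60 min of MMS, against 11.11 and 11.54 in H2O2, a difference of -0.64 ± 0.21 (adjusted p = 0.0881). ACO1 differed by -0.52 ± 0.15 (adjusted p = 0.0623), and it passed with time point as a block (adjusted p = 0.0458) and with arrays centred on their medians (-0.63, adjusted p = 0.0416). In this comparison limma called 8.13% of all genes. Both early MMS arrays lay below both early H2O2 arrays for 5 of the 10 genes, ACO1, IDH1, IDH2, KGD1 and FUM1, as they did for 17.1% of all genes. At an unadjusted p under 0.05, 4 of the 10 genes were lower in MMS in the limma fit, ACO1, IDH1, IDH2 and KGD1, against 9.05% of all genes, and none of the 4 passed after adjustment.

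In the late windows 3 genes differed between the stresses, with 39.2% of all genes called higher and 31.3% lower in MMS. ACO1 was lower in MMS, with 12.01, 11.97 and 11.75 at 100, 140 and 180 min against 12.57, 12.41 and 12.19 in H2O2, a difference of -0.48 ± 0.12 (adjusted p = 0.00607). FUM1 was also lower in MMS (-0.23 ± 0.08, adjusted p = 0.0254). LSC1 was higher in MMS (0.32 ± 0.10, adjusted p = 0.0156). For these 3 genes the late arrays of MMS and H2O2 did not overlap, and over all genes 42.9% lay wholly higher and 34% wholly lower in late MMS.

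The median over all genes was itself 0.10 higher in late MMS than in late H2O2. With arrays centred on their medians, ACO1 (-0.57) and FUM1 (-0.32) remained lower in MMS, and LSC1 did not pass (0.22, adjusted p = 0.0695), so that the split became 0 higher and 2 lower. After quantile normalization the split was 2 higher and 1 lower, and FUM1 did not pass (-0.16, adjusted p = 0.106). FUM1 did not pass either without the 140 or 180 min H2O2 array or without the 100 min MMS array. The late difference of CIT1 was 0.02 ± 0.18, with a 95% interval from -0.40 to 0.43. That of IDH2 was -0.07 ± 0.13, with an interval from -0.35 to 0.22, and that of KGD1 was 0.03 ± 0.12, with an interval from -0.23 to 0.30. KGD2 stood at 0.37 ± 0.16 (adjusted p = 0.0561).

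**Figure D3:**
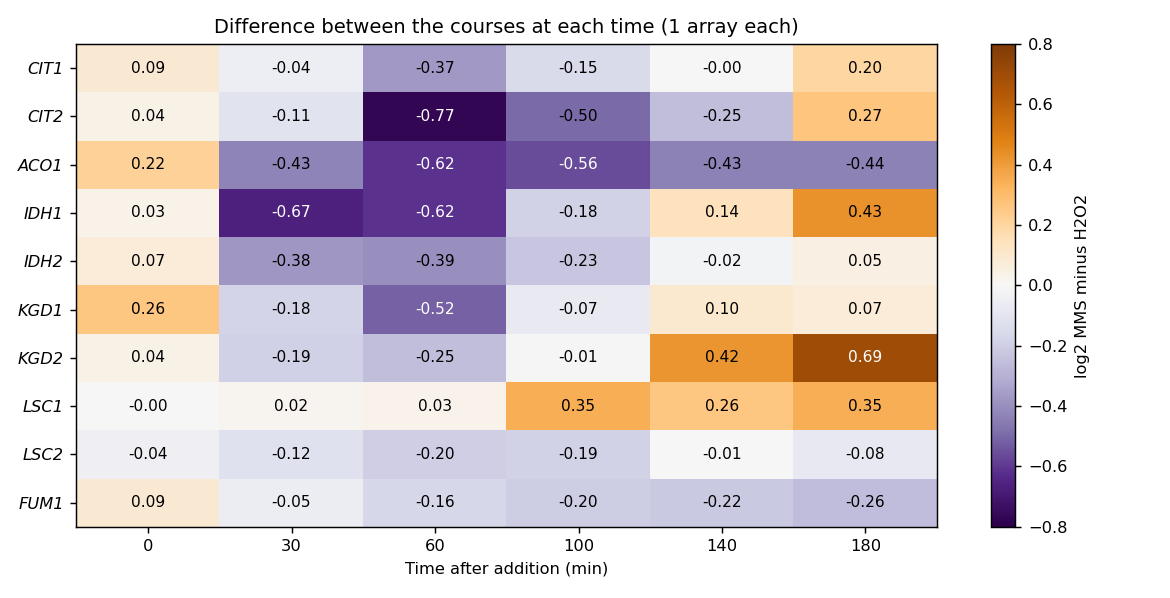
Log2 signal in MMS minus that in H2O2 for each gene (rows) at each time in minutes (columns), 1 array of each course per cell, with purple for lower and orange for higher in MMS. ACO1, LSC2 and FUM1 were lower in MMS at all 5 stressed times, LSC2 by as little as -0.005 at 140 min. LSC1 was higher at all 5, though by only 0.02 and 0.03 at 30 and 60 min. IDH1 and KGD2 were lower in MMS at 30 and 60 min and higher at 140 and 180 min.

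Over the 12 arrays the 10 genes followed each other to different degrees. These correlations are descriptions of 12 arrays that share 2 courses and a common time trend. The subunit pair IDH1 and IDH2 had the highest Pearson r among all pairs (0.978), followed by CIT1 with IDH2 (0.967). LSC1 and FUM1 had the lowest (0.096), although their products act close together in the cycle. FUM1 had a median r of 0.54 with the other 9, against 0.89 for IDH2 and 0.87 for IDH1.

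The genes outside the list whose profile was most like the mean of the 10 were ATG22 (r = 0.991), ATG31 (0.984), TDA10 (0.982), GND2 (0.979) and POR1 (0.979). ATG22 encodes a vacuolar amino acid exporter, ATG31 an autophagy factor, GND2 a 6-phosphogluconate dehydrogenase and POR1 the mitochondrial porin. Taken gene by gene, KGD2 was nearest to MDH1 (r = 0.989), the mitochondrial malate dehydrogenase of the same cycle. CIT1 was nearest to ATG31 (0.991) and FUM1 to ICL2 (0.943), which encodes the mitochondrial 2-methylisocitrate lyase.

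Other genes of the cycle also rose, and 8 of them were analysed. In the late windows 6 of 8 rose in MMS, where 40.3% of all genes were called higher, and 7 of 8 in H2O2, where 9.12% were. None fell (34.6% of all genes called lower in MMS and 6.28% in H2O2). The list's median change was 0.67 in MMS and 0.96 in H2O2. MDH1, which regenerates oxaloacetate, rose by 1.64 ± 0.21 in late MMS and 1.09 ± 0.21 in late H2O2. SDH2, the iron-sulfur subunit of succinate dehydrogenase, rose by 1.79 ± 0.22 in late MMS and 1.19 ± 0.22 in late H2O2, while SDH1, its flavoprotein subunit, rose by 0.62 ± 0.23 and 1.02 ± 0.23. CIT3, a minor mitochondrial citrate and methylcitrate synthase with a low signal at 0 min (4.35 in the MMS and 4.37 in the H2O2 course), rose by 1.69 ± 0.18 in late MMS and 0.997 ± 0.18 in late H2O2. CIT3, SDH2 and MDH1 were higher in late MMS than in late H2O2 when tested directly (0.69 ± 0.16, 0.60 ± 0.19 and 0.54 ± 0.18). In that comparison 39.2% of all genes were called higher.

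Of 9 genes that feed pyruvate into the cycle, 4 rose in late MMS, where 40.3% of all genes were called higher, and 3 in late H2O2, where 9.12% were. None fell in either, where 34.6% of all genes were called lower in late MMS and 6.28% in late H2O2. PYC1, a pyruvate carboxylase that refills oxaloacetate, rose by 1.76 ± 0.29 in late MMS and 1.55 ± 0.29 in late H2O2. MPC3, the mitochondrial pyruvate carrier subunit used in respiring cells, rose by 2.09 ± 0.46 and 1.94 ± 0.46. The list's median stayed at 0.14 in late MMS and 0.10 in late H2O2, close to the 0.09 and -0.06 of all genes.

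Among isocitrate and malate enzymes outside the cycle, 4 of 7 rose and 1 fell in late MMS, and 1 rose and 1 fell in late H2O2. Of all genes, 40.3% were called higher and 34.6% lower in late MMS, and 9.12% and 6.28% in late H2O2. IDP2, the cytosolic NADP-dependent isocitrate dehydrogenase, rose by 1.60 ± 0.17 in late MMS and 0.69 ± 0.17 in late H2O2, and the stresses differed by 0.91 ± 0.15 (adjusted p = 0.000489). MLS1, malate synthase, had signals of only 3.57 in the MMS and 3.35 in the H2O2 course at 0 min, and no detection call was used here, so the size of its change is uncertain. It rose early in MMS (1.38 ± 0.28) and in H2O2 (2.89 ± 0.28), and in late MMS it was still up by 1.52 ± 0.25. ICL1, isocitrate lyase, also dim at 5.89 in the MMS and 6.01 in the H2O2 course at 0 min, was the gene that fell, by 0.23 ± 0.09 in late MMS and 0.39 ± 0.09 in late H2O2.

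Of 7 genes for carriers that move cycle intermediates across the inner membrane, 3 fell and none rose in late MMS. In that comparison 34.6% of all genes were called lower and 40.3% higher. In late H2O2 ODC1 rose and OAC1 fell, where 9.12% of all genes were called higher and 6.28% lower. YHM2, the citrate and 2-oxoglutarate carrier, had signals of 12.02, 11.87, 10.87, 10.42, 10.59 and 10.66 at 0 to 180 min of MMS, and of 12.07, 11.65, 11.50, 12.04, 12.21 and 12.23 in H2O2. It fell by 1.49 ± 0.23 in late MMS, and late MMS against late H2O2 gave -1.60 ± 0.21 (adjusted p = 0.000116). DIC1, the dicarboxylate carrier, was likewise lower in late MMS than in late H2O2 (-1.05 ± 0.15).

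Of 9 retrograde pathway genes, 6 rose and none fell in late MMS, where 40.3% of all genes were called higher and 34.6% lower. In late H2O2 1 rose, DLD3, and 2 fell, RTG3 and MKS1, where 9.12% of all genes were called higher and 6.28% lower. Late MMS against late H2O2, 6 of the 9 were called higher and 1 lower, where 39.2% of all genes were called higher and 31.3% lower. RTG2, the sensor of the pathway, rose by 0.74 ± 0.14 in late MMS, where it was 1.16 ± 0.13 above late H2O2 (adjusted p = 5.18e-05). RTG3, a subunit of its activator, rose by 0.58 ± 0.11 in late MMS and fell by 0.38 ± 0.11 in late H2O2. MKS1, which fell in late H2O2, had signals of 9.22, 9.20 and 9.19 at 100, 140 and 180 min of MMS, against 8.56 at 0 min of that course. DLD3, a target of the pathway, rose by 0.87 ± 0.18 in late H2O2. It was -0.65 ± 0.16 in late MMS relative to late H2O2 (adjusted p = 0.0051).

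Of the 5 Hap activator genes, 3 rose in late MMS (HAP2, HAP3 and HAP4), where 40.3% of all genes were called higher, and 1, HAP4, in late H2O2, where 9.12% were. HAP4, the limiting activation subunit, had signals of 8.29, 7.34, 7.89, 8.68, 9.20 and 9.40 at 0 to 180 min of MMS, against 8.14, 9.08, 9.73, 9.44, 9.48 and 9.35 in H2O2. At 30 min HAP4 was thus below both 0 min arrays in MMS and above them in H2O2, and the courses had met by 180 min. Early MMS against early H2O2 gave -1.79 ± 0.27 for HAP4 (adjusted p = 0.00801), and its early change from time 0 was -0.60 ± 0.27 in MMS (adjusted p = 0.11) and 1.19 ± 0.27 in H2O2 (adjusted p = 0.0114).

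**Figure D4:**
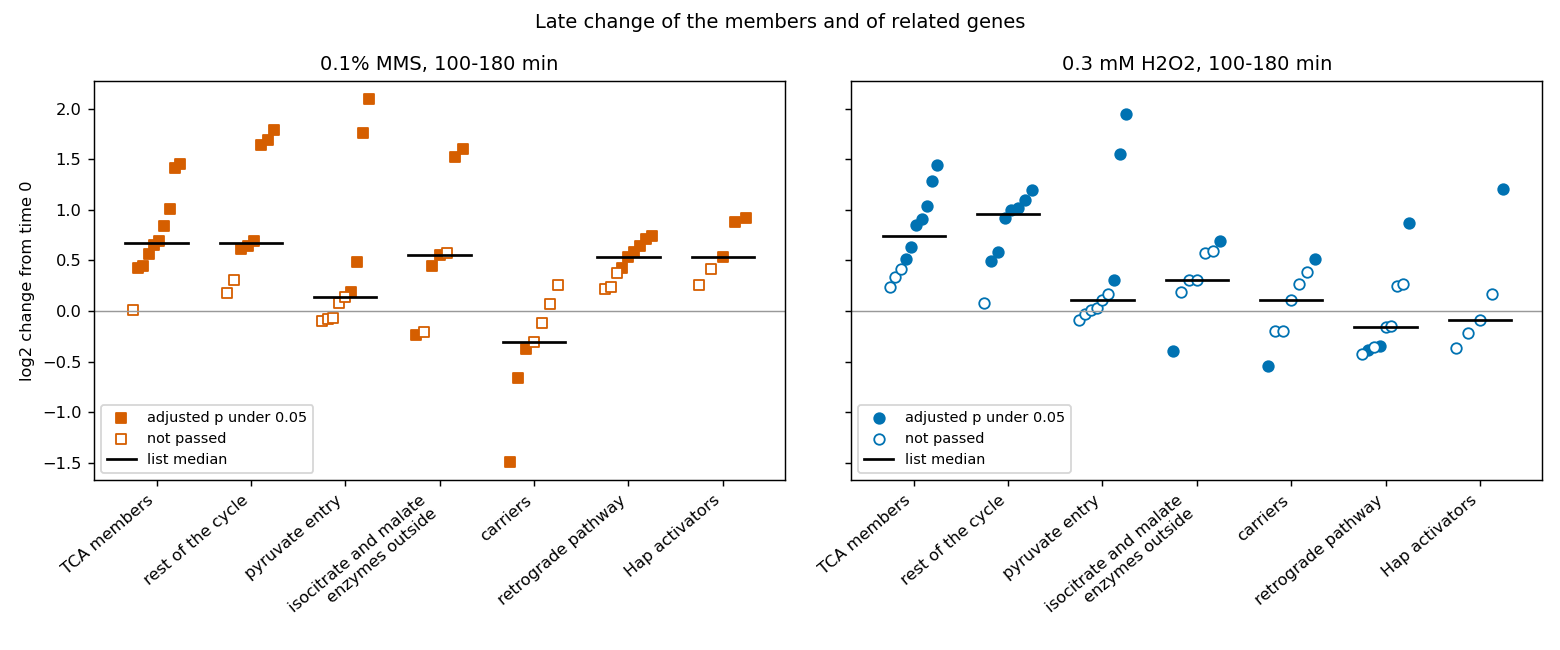
Log2 change of the late window from time 0 (y axis) for the 10 TCA cycle genes and 6 lists of related genes (x axis), MMS on the left and H2O2 on the right, with filled symbols for an adjusted p under 0.05, open symbols for genes that did not pass, and bars for list medians. Carriers lay mostly below 0 in MMS (median -0.30), and the retrograde pathway list had a median of 0.53 in MMS and -0.15 in H2O2.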

How the data were processed

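RNA from 12 yeast samples was hybridised to one-colour Affymetrix arrays, 1 per stress and time. The authors deposited log2 signals per probe set from RMA, as the submitters' processing notes name it, with no version given in the sources used here. The signals were used unscaled. Among 5900 probe sets there were 184 controls, 5498 with 1 listed gene and 218 with none. The brightest probe set was used for the 47 genes with several, which gave 5449 genes, of which 12 had their symbols updated. Signals of different probe sets were not set against each other.

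The limma package (3.58.1, R 4.3.3) fitted 5 group means over the 12 arrays (7 residual degrees of freedom), and p-values were adjusted by Benjamini-Hochberg over all 5449 genes. Labels name no separate cultures per array. All 10 members are named. From each list of related genes, those called in at least 1 contrast were eligible, up to 4 per list and contrast by size of change. Members and lists were chosen with earlier results of these data known. Alternatives covered scaling, normalization, a filter on dim genes, moderation, probe set rules, window limits, the baseline, time point as a block and leaving out each array. Promoter and protein sequences were not analysed here.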

Additional observations from a re-analysis of the deposited data

Results flagged for a closer look

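The late windows of the stresses differed when tested directly for 3 of the 10 genes. ACO1 differed by -0.48 (MMS minus H2O2) and passed in 20 of 21 alternatives, between -0.58 and -0.39. LSC1 differed by 0.32 and passed in 19 of 21, between 0.22 and 0.39. FUM1 differed by -0.23 and passed in 15 of 21, between -0.32 and -0.16. The late minus early change differed between MMS and H2O2 for IDH1, by 0.77, and this passed in 11 of 21 alternatives, between 0.53 and 1.01. The cause of these differences was not tested.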

How the results depend on the processing

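Of 1870 recomputed member values, 1715 kept their side of the threshold, 127 were no longer called, 28 became called and 0 called values changed sign. Among the 1715 were 53 that changed sign, all called in neither fit and at most 0.20 in size. With each course set against its own 0 min array, members called fell to 0 in early H2O2, 0 in late H2O2 and 0 in early MMS, against 4, 7 and 1. With an early window of 30 min, the counts were 0 for early H2O2, 0 for early MMS, 0 for late against early H2O2 (main count 1), 5 for late against early MMS (8) and 0 for the difference of changes (1). With an early window of 30 to 100 min they were 2 for early H2O2, 0 for late H2O2, 0 for late against early H2O2, 0 for late against early MMS, 0 for late MMS against late H2O2 (3) and 0 for the difference of changes. Centring arrays on their medians gave 0 for early MMS and 1 for early MMS against early H2O2 (0), and the time point block gave 1 for the last. Quantile normalization and trended, robust moderation each gave 2 for late against early H2O2. Leaving out each array in turn gave 0 to 6 members for early H2O2, 0 to 8 for late H2O2, 0 to 2 for early MMS, 7 to 9 for late MMS, 0 to 2 for late against early H2O2, 2 to 9 for late against early MMS, 0 to 0 for early MMS against early H2O2, 2 to 4 for late MMS against late H2O2 and 0 to 3 for the difference of changes. These are counts of members only, and how many of all genes were called under each setting is not given here. They therefore do not show whether a loss or gain of calls was particular to the members. The cause of these changes in count was not tested, apart from the fewer arrays that some settings leave by construction. The labels number no replicates, so arrays were paired by time only, through the time point block.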

Other observations

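Several genes nearest to single members by profile over the 12 arrays belong to no list above, and they are given as values. ACO1 was nearest to PBI2, a proteinase B inhibitor (r = 0.956), IDH2 to FUN14, a mitochondrial outer membrane protein (0.981), and LSC2 to BNA2, which encodes the first enzyme of NAD synthesis from tryptophan (0.959). LSC1 was nearest to IRC15 (0.981), whose late change was 4.504 in MMS and 2.37 in H2O2.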
